A study of Mus musculus with 6 samples.

Results

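The 55 genes described here encode core proteins of the spliceosome and members of the main families of proteins that steer it in the mouse. They were chosen by name, with earlier results of these data known. The classes are 12 SR and transformer-2 proteins, 17 heterogeneous nuclear ribonucleoproteins (hnRNPs) and polypyrimidine tract binding (PTB) proteins, and 26 core factors. The core class takes in proteins of the small nuclear ribonucleoproteins (snRNPs) and other splicing factors. All 55 were found among the 26532 genes of the table, and all 55 passed the low-count filter, which left 13764 genes. RNA was sequenced from mouse embryonic fibroblasts (MEFs), labelled as mesenchymal stem cells under osteogenic differentiation. The control cells, with genotype label WT, received an adenovirus for green fluorescent protein (GFP, 3 libraries), and the others, labelled ORAI2 Overexpression, one for ORAI2, which forms store-operated calcium channels (3 libraries). Every library thus came from virus-treated cells with the same differentiation label. The labels state neither the promoter of the virus, the duration of culture nor any addition of BMP9. They also do not say that replicates are separate cultures, so a p-value reflects only how far these libraries spread, which may be technical. The study asks what ORAI2 does in osteogenic differentiation, and its single comparison is ORAI2 against GFP.

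Introns are removed from pre-mRNA by the spliceosome, which is built anew on each intron from the U1, U2, U4, U5 and U6 snRNPs. U1 pairs with the start of the intron, U2 with the branch site, and the tri-snRNP of U4, U6 and U5 then joins and is rearranged into the catalytic enzyme. SR proteins carry domains rich in arginine and serine and generally favour the use of the exons they bind. The hnRNPs and PTB proteins coat nascent RNA and often repress exons, so that the balance between the families shapes which exons are kept.

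Library totals lay between 18526884 and 18844436 counts. Levels are given as CPM, in which counts are divided by TMM-scaled library totals, and changes were tested with edgeR over all 13764 genes with Benjamini-Hochberg adjustment, at an adjusted p under 0.05. Orai2 stood at 53.4, 48.9 and 48.7 CPM in the GFP libraries and at 3656, 2831 and 2441 CPM in the ORAI2 libraries, which follows the labels. The authors' TPM columns disagreed with the count columns that share their names. In deviations from each gene's mean, TPM columns GFP-1 and GFP-2 correlated best with count columns GFP-2 and GFP-3 (0.596 each). TPM columns ORAI2-1 and ORAI2-2 correlated best with count columns ORAI2-2 and ORAI2-3 (0.805 and 0.749). The number of a TPM column therefore need not name the library of that number. Orai2 was at 36.3 TPM in the column named ORAI2-3, near the 38.2 TPM of the column named GFP-3, against 1429.5 and 1241 TPM in the columns ORAI2-1 and ORAI2-2. The 6 measured fibroblast markers (Pdgfra, Pdgfrb, Vim, Col1a1, Col1a2 and S100a4) fell, their summed level being 1975 to 2111 CPM in the GFP and 1011 to 1084 CPM in the ORAI2 libraries, and Thy1 and Fap had at most 3 and 10 counts in a library. Defining markers of macrophages (Ptprc), endothelium (Pecam1, Cdh5) and epithelium (Epcam) had at most 2, 7, 3 and 0 counts in any library. Of the measured macrophage markers 2 of 3 fell and of the endothelial markers 2 of 2 rose, with summed levels of 51.5 to 56.0 against 26.2 to 35.8 CPM and of 5.90 to 8.35 against 16.0 to 17.2 CPM. Of 2 measured epithelial markers 1 rose (2.41 to 3.53 against 4.002 to 4.85 CPM in sum), and of 3 neural markers 1 rose and 1 fell (127 to 143 against 160.0 to 171 CPM). The part of these shifts in the splicing genes' values was not tested, and in bulk RNA fewer cells of a type cannot be told apart from less RNA per cell.

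Splicing factor genes were modestly higher in the ORAI2 libraries. Of the 55 members 29 rose, none fell and 26 did not pass. Over all tested genes 20.8% were called higher and 22.1% lower (42.9% in either direction). Among the 6916 tested genes within the members' range of mean level, 27.6 to 1191 CPM, 31.2% were called higher and 23.5% lower. The count of 0 lower members was also given by DESeq2 and limma-voom, and 2 members were lower at an unadjusted p under 0.05 in edgeR, against 33 higher. With the upper quartile normalisation Srsf9 and Hnrnpl were called lower, and in the TPM columns numbered 1 and 2 fewer members, 17, were called higher. The log2 fold change was above 0 in 49 of 55 members, with a median of 0.12 against 0.00 for all tested genes, which is 1.09-fold. Every ORAI2 library exceeded every GFP library in 36 of 55 members (26.2% of all tested genes, 36.7% of those within the members' range of level), and lay below them in 2 members, Prpf8 and Hnrnpl (26.6% of all tested genes).

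The changes were small. A call together with a rise of at least 1.2-fold was reached by 6 of 55 members, Srsf2, Srsf3, Srsf11, Ptbp2, Prpf3 and Prpf31. Over all tested genes 10.1% met that limit, and 11.5% of those within the members' range of level, so that the members' share of large rises was near the background. The largest rise among the members was 1.37-fold, that of Srsf2.

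**Figure D1:**
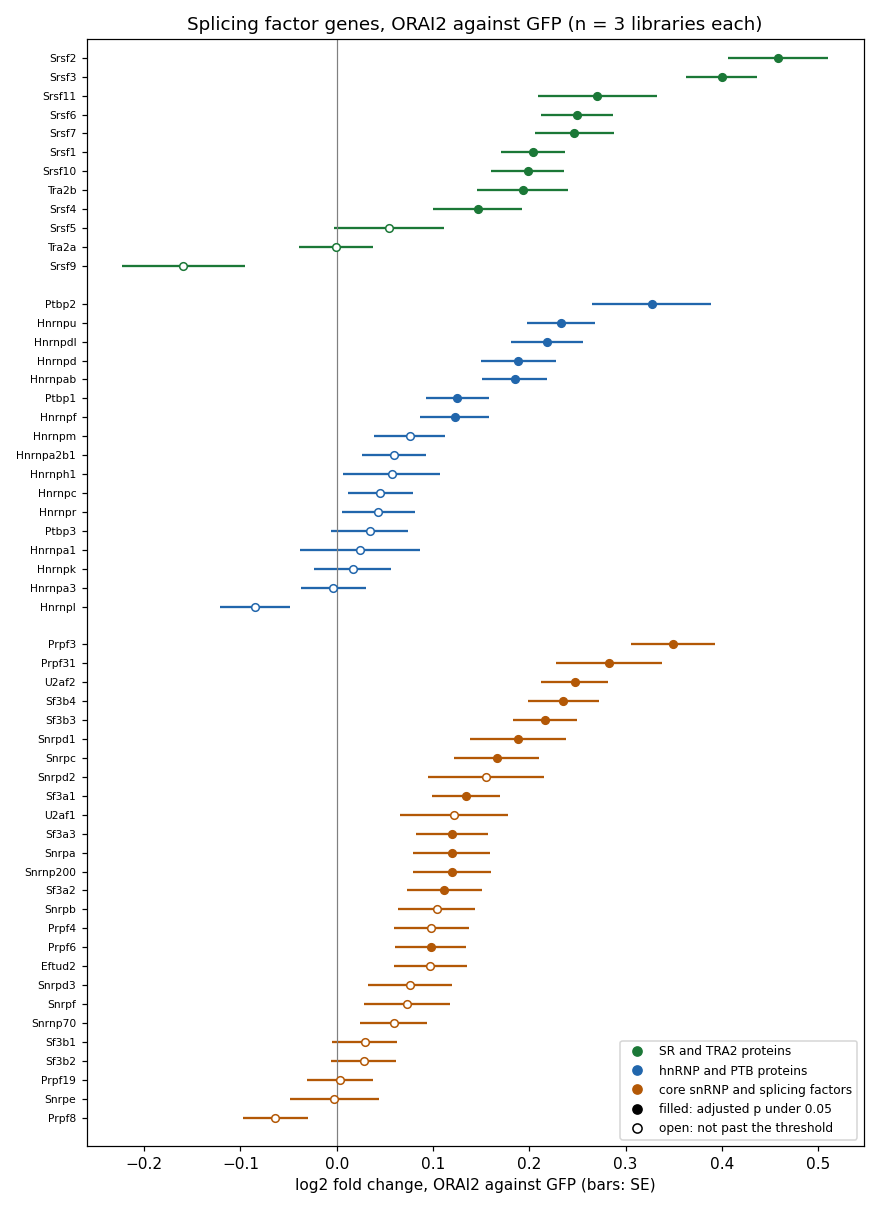
Log2 fold change of ORAI2 against GFP for each of the 55 genes on the x axis, with SE bars, by class and ordered by size, with 3 libraries a group. Filled points passed an adjusted p under 0.05 in edgeR, and all 29 filled points lie to the right of 0, the farthest being Srsf2 at 0.46.

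By class, 9 of 12 SR and transformer-2 genes (75.0%), 7 of 17 hnRNP and PTB genes (41.2%) and 13 of 26 core genes rose. Beside these stand 20.8% of all tested genes called higher and 31.2% of those within the members' range of level. That range was not matched to each class, and the hnRNP and PTB share lay nearest to it. Median log2 fold changes were 0.20, 0.06 and 0.12. Summed over the class, SR genes were at 2168, 2229 and 2325 CPM in the GFP libraries and at 2553, 2657 and 2614 CPM in the ORAI2 libraries. The hnRNP and PTB genes summed to 7463, 7451 and 7360.3 CPM against 7918, 8004 and 7947 CPM. The core genes were at 3976, 3952 and 3978 CPM against 4260.1, 4268 and 4228 CPM. Each of the 3 sums was higher in every ORAI2 library than in any GFP library, by 1.16-fold for the SR genes and 1.07-fold for each of the other classes. The difference between the classes was not tested, since the members were chosen with results known.

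**Figure D2:**
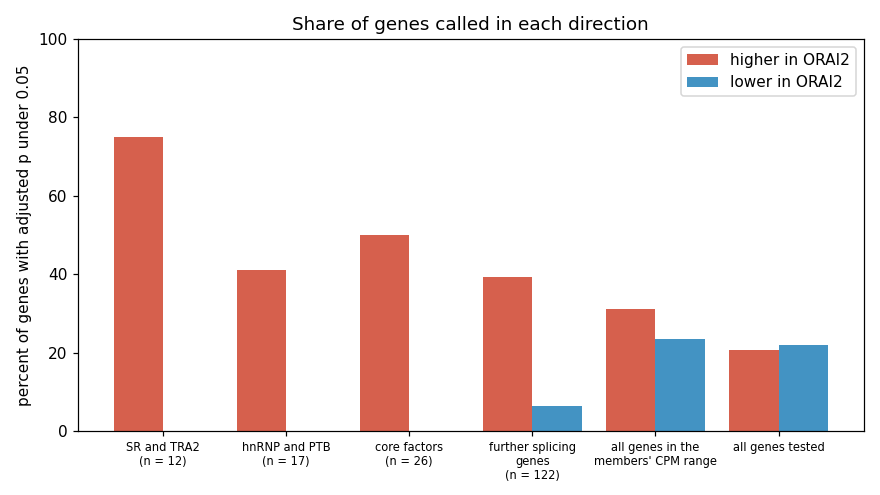
Percent of genes with an adjusted p under 0.05 in edgeR (y axis), higher or lower in ORAI2, for the 3 classes, 122 further splicing genes, all genes within the members' range of CPM and all genes tested. The red bars of the SR, hnRNP and core classes stand for 9 of 12, 7 of 17 and 13 of 26 genes, against 31.2% and 20.8% in the gene sets at the right, and the 3 classes have no blue bar.

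Promoters are shown as a description only, and shared control of the members was not tested. The printed windows and the motif they were picked for were chosen after values were seen. RefSeq windows of 300 bases (250 before and 50 after the annotated start, build GRCm38.p6, which differs from the authors' GRCm39) were found for 49 of the 55 genes. Of the motifs searched on both strands, CCGGAAG, the core of sites bound by ETS factors, stood in a window of 13 of 26 called members and 4 of 23 members not called. Among all 10709 tested genes with a window it stood in 19.7%, and in 24.4% of those called higher, 12.9% of those called lower and 20.6% of those not called. It was in 8.86% of all 32851 windows. CACGTG, the E-box read by MYC among others, stood in 5 of 26 called members and 2 of 23 not called, against 11.7% of the tested genes with a window, 18.3% of those called higher and 7.15% of all windows. GGGCGG, the SP1 box, was in 20 of 26 and 13 of 23 members and in 67.1% of the tested genes and 35.7% of all windows. The longer NRF1 and YY1 motifs, given here by name, stood in 2 and 1 of the 49 members with a window and in 2.29% and 1.77% of the tested genes (0.971% and 0.633% of all windows). Genes with several annotated starts had several windows and counted once if any of them held the motif. No overlap between motifs was excluded, a match is a description of the letters, and no difference between these shares was tested.

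The windows of 5 called members follow, 5′ to 3′ on the gene's strand, with CCGGAAG or CACGTG (or their reverse complements) in capitals. Srsf7, Hnrnpd and Prpf3 are the genes with the smallest p in their class that hold CCGGAAG, Sf3a1 holds it nearest to the annotated start among the 5, and Srsf3, the SR gene with the smallest p, holds none of CCGGAAG or CACGTG or GGGCGG. Their places are chr17:80207256-80207555 (minus strand), chr5:99978889-99979188 (minus), chr3:95855704-95856003 (minus), chr11:4160104-4160403 (plus) and chr17:29032410-29032709 (plus). For Prpf3 the window of 1 of its 2 annotated starts is given.
Srsf7: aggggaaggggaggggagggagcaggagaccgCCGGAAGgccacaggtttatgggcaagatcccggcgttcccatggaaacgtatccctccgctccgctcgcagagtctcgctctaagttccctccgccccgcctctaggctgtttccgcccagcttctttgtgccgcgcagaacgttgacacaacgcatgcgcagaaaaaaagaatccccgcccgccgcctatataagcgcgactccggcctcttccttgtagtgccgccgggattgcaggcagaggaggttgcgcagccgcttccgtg
Hnrnpd: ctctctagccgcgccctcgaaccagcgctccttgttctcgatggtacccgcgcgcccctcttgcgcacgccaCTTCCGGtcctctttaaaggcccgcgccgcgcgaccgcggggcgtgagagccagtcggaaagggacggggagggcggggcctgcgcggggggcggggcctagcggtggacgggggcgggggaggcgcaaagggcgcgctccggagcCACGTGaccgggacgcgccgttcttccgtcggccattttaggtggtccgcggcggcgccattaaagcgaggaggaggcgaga
Prpf3: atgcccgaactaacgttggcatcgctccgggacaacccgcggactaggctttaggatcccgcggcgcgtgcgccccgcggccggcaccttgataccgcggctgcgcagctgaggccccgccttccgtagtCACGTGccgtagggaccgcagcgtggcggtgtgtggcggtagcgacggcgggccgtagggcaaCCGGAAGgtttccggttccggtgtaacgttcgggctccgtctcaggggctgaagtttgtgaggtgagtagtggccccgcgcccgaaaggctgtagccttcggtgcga
Sf3a1: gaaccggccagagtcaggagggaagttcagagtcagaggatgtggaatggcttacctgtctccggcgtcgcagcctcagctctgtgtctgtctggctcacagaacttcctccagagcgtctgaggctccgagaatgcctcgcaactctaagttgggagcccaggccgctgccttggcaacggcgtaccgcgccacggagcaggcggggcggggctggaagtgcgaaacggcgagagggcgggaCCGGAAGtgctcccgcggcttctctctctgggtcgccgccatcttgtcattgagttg
Srsf3: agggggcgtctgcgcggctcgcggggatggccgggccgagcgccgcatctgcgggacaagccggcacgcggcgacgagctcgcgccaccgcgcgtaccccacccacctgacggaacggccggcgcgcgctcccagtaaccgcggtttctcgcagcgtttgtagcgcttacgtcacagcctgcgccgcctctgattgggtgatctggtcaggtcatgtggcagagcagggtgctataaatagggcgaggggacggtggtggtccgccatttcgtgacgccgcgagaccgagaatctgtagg
The CCGGAAG match began 218 bases before the annotated start in Srsf7, 178 before it in Hnrnpd (as its reverse complement), 57 before it in Prpf3 and 7 before it in Sf3a1. CACGTG began 32 bases before the start of Hnrnpd and 120 bases before that of Prpf3. All 5 windows were rich in G and C, from 62.7% in Srsf7 to 72.3% in Hnrnpd.

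Among the SR proteins the most marked changes were those of Srsf3 and Srsf2. Srsf3 encodes the smallest SR protein, which also takes part in mRNA export. Its level was 209, 209 and 218 CPM in the GFP libraries and 272, 288 and 279 CPM in the ORAI2 libraries. The gene rose 1.32-fold (log2 fold change 0.40, SE 0.04, adjusted p = 2.99e-06), and the lowest ORAI2 library lay well above the highest GFP library. Since 31.5% of the 50-base words of its longest annotated transcript also stand in other annotated transcripts, its own level is uncertain. Srsf2 (SC35), a marker of nuclear speckles, where splicing factors gather, shares no such word with another gene. It was at 177, 191 and 207 CPM in the GFP libraries and at 258, 276 and 255 CPM in the ORAI2 libraries. This was a rise of 1.37-fold (log2 fold change 0.46, SE 0.05, adjusted p = 1.76e-05), so that no library overlapped although the GFP libraries were spread out.

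Srsf6, a regulator of alternative exons, was at 206, 215 and 219.6 CPM with GFP and at 252, 249 and 261 CPM with ORAI2. It rose 1.19-fold (adjusted p = 0.000155), again with the groups apart. Srsf1 (SF2/ASF), the founding member of the family and a factor that helps U1 find its site, is among the best studied. Its values of 426, 431 and 437 CPM and of 501, 493 and 496 CPM were tight in both groups. Srsf1 rose 1.15-fold (adjusted p = 0.000299), with a log2 fold change of 0.20 and an SE of 0.03, and its groups did not overlap. Srsf7, a zinc-knuckle SR protein closely related to SRSF3, went from 110.2, 107 and 114 CPM to 125, 136 and 132 CPM. Its groups did not overlap, and it rose 1.19-fold (adjusted p = 0.000392). Srsf10, an SR protein known as a repressor of splicing when it is dephosphorylated, was at 191, 191 and 200.3 CPM with GFP and at 214, 229 and 225 CPM with ORAI2. It rose 1.15-fold without overlap (adjusted p = 0.00106).

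Of the other SR members, Srsf11 rose 1.21-fold, Tra2b, a partner of SR proteins on purine-rich exon enhancers, 1.14-fold, and Srsf4 1.11-fold (adjusted p = 0.00331, 0.0053 and 0.0214). For Srsf11 the GFP libraries were at 158, 176 and 196 CPM and the ORAI2 libraries at 211, 211 and 218 CPM, and for Tra2b they were at 182, 184 and 178 CPM and at 193, 223 and 207 CPM. Neither gene's groups overlapped. The Srsf4 call was lost in 5 of 14 alternatives, with an adjusted p of up to 0.105 without GFP replicate 2.

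The remaining 3 SR members did not pass. Srsf5, the member with the highest authors' TPM value of the class, was at 242, 260.5 and 292 CPM in the GFP libraries and at 273, 284 and 267 CPM in the ORAI2 libraries. The groups overlapped widely (log2 fold change 0.05, adjusted p = 0.472), and 27.9% of its 50-base words are shared with other transcripts. Without GFP replicate 3, the highest of the control libraries, the Srsf5 difference passed (log2 fold change 0.13, adjusted p = 0.0340), so that 1 library decides this value. Tra2a, the paralog of Tra2b, was at 151, 157 and 152 CPM with GFP and at 146, 156 and 158 CPM with ORAI2, and its adjusted p was 0.989. Srsf9, an SR protein with a short arginine-serine domain, was at 56.9, 53.7 and 51.7 CPM against 43.7, 50.02 and 51.7 CPM. Its log2 fold change was -0.16 (adjusted p = 0.0604). It passed as lower in 4 of 14 alternatives, among them the upper quartile normalisation (adjusted p = 0.0376) and the fits without GFP replicate 3 or ORAI2 replicate 3 (adjusted p = 0.0410 and 0.0339).

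**Figure D3:**
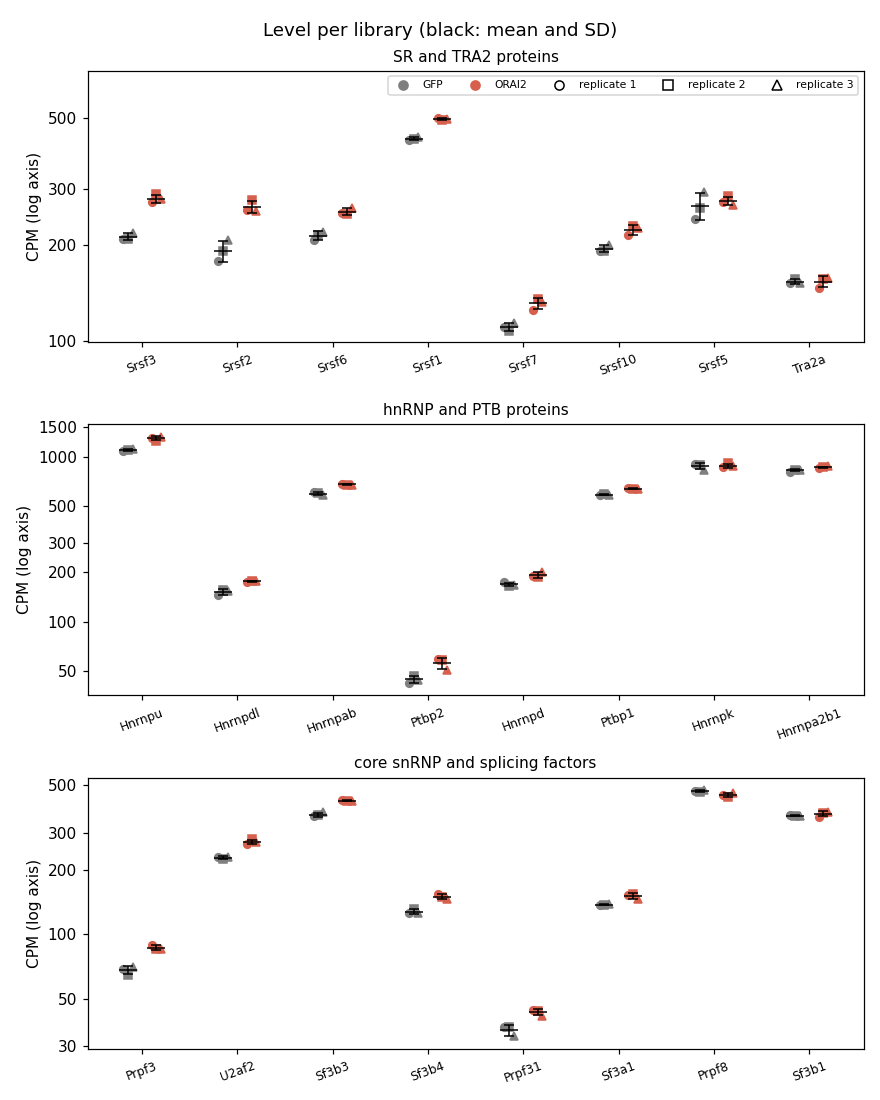
CPM per library (log axis) of the 24 genes described in full, in 3 panels for SR, hnRNP and core genes, with GFP in grey, ORAI2 in red, marker shapes for the replicate numbers, and black bars for mean and SD over 3 libraries. In each panel the first 6 genes rose without overlap, as Srsf3 from 209, 209 and 218 to 272, 288 and 279 CPM, and the last 2 did not pass.

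The hnRNP and PTB genes were divided. Hnrnpu (SAF-A), a nuclear scaffold protein that binds RNA and chromatin, was the first of them by p. It stood at 1081, 1096 and 1108 CPM in the GFP libraries and at 1302, 1247 and 1313 CPM in the ORAI2 libraries. The groups lay far apart, and the gene rose 1.18-fold (log2 fold change 0.23, SE 0.04, adjusted p = 0.000191). Hnrnpdl, a relative of HNRNPD that shuttles between nucleus and cytoplasm, was at 145, 156 and 153 CPM against 175, 177 and 177 CPM. Its rise was 1.16-fold with no overlap (adjusted p = 0.000435). Hnrnpab, another protein of this subfamily, was at 607, 599 and 583 CPM with GFP and at 684, 676 and 673 CPM with ORAI2, a 1.14-fold rise without overlap (adjusted p = 0.000794). Hnrnpd (AUF1), which binds AU-rich elements and affects mRNA decay, completed this group of 3 relatives. Its 173, 165 and 166 CPM in the GFP libraries compared with 189, 186 and 199.7 CPM in the ORAI2 libraries (1.14-fold, adjusted p = 0.00175), again without overlap.

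The PTB proteins bind pyrimidine-rich tracts and repress exons, PTBP1 in most tissues and PTBP2 mainly in neurons. Ptbp2 showed the largest rise of the class from the second lowest authors' TPM value among all members. Its levels were 42.6, 47.3 and 44.7 CPM with GFP and 59.1, 58.5 and 51.2 CPM with ORAI2. Ptbp2 rose 1.25-fold (adjusted p = 0.000981, log2 fold change 0.33, SE 0.06), and the lowest ORAI2 library still lay above every GFP library. Ptbp1 was at 585, 591 and 582 CPM against 647, 638 and 633 CPM, with little spread in either group. It rose 1.09-fold (adjusted p = 0.00818). Ptbp3 did not pass (log2 fold change 0.03, adjusted p = 0.523).

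Hnrnpf, a binder of G-rich tracts, also rose, by 1.09-fold (adjusted p = 0.0153). It shares 49.0% of its 50-base words with other annotated transcripts, and its call was lost without GFP replicate 2 (adjusted p = 0.0722). The 10 members of the class that did not pass had log2 fold changes from -0.09 to 0.08. Hnrnpk, a poly-C binding protein, was at 896, 889 and 830.0 CPM with GFP and at 861, 909 and 875 CPM with ORAI2. These groups overlapped (log2 fold change 0.02, adjusted p = 0.772), and 34.5% of its 50-base words stand in other transcripts too. Hnrnpa2b1, a core protein of hnRNP particles, had the highest authors' TPM value of all members. Its 812, 835 and 834 CPM and 854, 860.0 and 871 CPM did not overlap, but the difference of 1.04-fold did not pass (adjusted p = 0.174). Hnrnpl, a binder of CA repeats, lay lower in all ORAI2 libraries, at 198, 189.8 and 190.2 CPM against 187, 177 and 179.8 CPM. Its log2 fold change of -0.09 did not pass (adjusted p = 0.0779), though it did with the upper quartile normalisation and with the replicate number as a block (adjusted p = 0.0275 and 0.0429).

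The core factors were counted by particle, beside 20.8% of all tested genes called higher (31.2% within the members' range of level). Of 9 U2 snRNP and U2AF genes 6 rose, of 7 tri-snRNP genes 4 and of 3 U1 genes 2. Of 6 genes for Sm proteins, which form the ring around the snRNAs, 1 rose. The log2 fold change was above 0 in 5 of these 6, with a median of 0.09. Such small counts do not set any particle apart from the background. Prp19, the ubiquitin ligase encoded by Prpf19, was the single member of its own complex and did not pass (adjusted p = 0.951).

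U2AF recognises the end of the intron, and SF3A and SF3B are the protein complexes of the U2 snRNP. U2af2, the large U2AF subunit, was at 230.3, 224 and 231 CPM in the GFP libraries and at 265, 279 and 269.7 CPM in the ORAI2 libraries. It rose 1.19-fold (log2 fold change 0.25, SE 0.03, adjusted p = 0.000103), with no overlap. Sf3b3, a scaffold of SF3B, was at 357, 361 and 372 CPM against 426, 422 and 419.6 CPM. It rose 1.16-fold (adjusted p = 0.000227), its ORAI2 libraries being nearly equal. Sf3b4, which contacts RNA next to the branch site, went from 126, 132 and 125 CPM to 154, 149.7 and 147 CPM. The rise was 1.18-fold (adjusted p = 0.000232) and the groups did not overlap. For U2af2 and Sf3b4, 29.9% and 49.3% of the 50-base words also stand in other annotated transcripts, which leaves their own levels uncertain.

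The 3 subunits of SF3A rose by smaller amounts. Sf3a1 was at 137, 137 and 139 CPM with GFP and at 153, 155 and 146 CPM with ORAI2. Its rise was 1.10-fold (adjusted p = 0.00845), and no library overlapped. Sf3a3 and Sf3a2 rose 1.09-fold and 1.08-fold (adjusted p = 0.0197 and 0.0333), calls that were lost in 2 and 7 of 14 alternatives. Sf3b1, the SF3B subunit that clamps the branch site, was at 360.5, 359 and 359.7 CPM against 356, 371 and 373 CPM. Its groups overlapped, and the difference did not pass (log2 fold change 0.03, adjusted p = 0.528). Sf3b2 (adjusted p = 0.537) and U2af1 (adjusted p = 0.0997), the small U2AF subunit, did not pass either, and U2af1 shares 59.4% of its 50-base words with other transcripts.

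In the tri-snRNP, Prpf3 and Prpf31 had the largest changes. Prpf3 was at 69.1, 64.9 and 70.4 CPM in the GFP libraries and at 89.3, 85.2 and 85.8 CPM in the ORAI2 libraries. It rose 1.27-fold (log2 fold change 0.35, SE 0.04, adjusted p = 3.94e-05), the smallest p among the core genes, with the groups well apart. Prpf31 was the member with the lowest authors' TPM value, at 36.8, 36.8 and 33.3 CPM against 44.3, 44.0 and 41.7 CPM. It rose 1.22-fold without overlap (adjusted p = 0.00126). Snrnp200, the helicase that unwinds U4 from U6, and Prpf6, a bridge between tri-snRNP parts, rose 1.09-fold and 1.07-fold (adjusted p = 0.0304 and 0.0476). These calls stood at the threshold and were lost in 5 and 9 of 14 alternatives. Prpf8, the protein that holds the catalytic centre, was at 470.0, 464 and 475 CPM with GFP and at 448, 441 and 459 CPM with ORAI2. Here the ORAI2 libraries were the lower ones, but the difference did not pass (log2 fold change -0.06, adjusted p = 0.150). Eftud2, the GTPase of the U5 snRNP, and Prpf4 did not pass by a narrow margin (adjusted p = 0.0541 and 0.0599).

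Snrpc and Snrpa, 2 of the U1 proteins, rose 1.12-fold and 1.09-fold (adjusted p = 0.00908 and 0.0284), and Snrnp70 did not pass (adjusted p = 0.197). The Snrpa call was lost in 6 of 14 alternatives, with an adjusted p of up to 0.0957. Of the Sm genes Snrpd1 rose 1.14-fold, from 79.0, 75.4 and 74.1 CPM to 81.3, 92.5 and 86.4 CPM (adjusted p = 0.0088). Snrpb and Snrpd2 lay just outside the threshold (adjusted p = 0.0518 and 0.0531), and Snrpd3, Snrpf and Snrpe did not pass (adjusted p = 0.183, 0.213 and 0.972). Without GFP replicate 2 the core genes called higher fell from 13 to 8. This was the only library whose removal moved that count by over 1.5 times.

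Levels between genes were compared in the authors' TPM, which accounts for transcript length, as means of the 4 columns numbered 1 and 2 (2 a group). The median gene of the SR class was at 153 TPM, that of the hnRNP and PTB class at 342 TPM and that of the core class at 145 TPM. Hnrnpa2b1 was highest at 953 TPM, followed by Hnrnpf at 630.5 and Hnrnpk at 623 TPM, whose ranges over the 4 columns overlapped (601 to 667 and 599 to 638 TPM). Among the core genes Snrpb (471 TPM) and Snrpe (421 TPM) led, and Prpf31 was lowest at 24.8 TPM, with Ptbp2 next at 29.3 TPM. The ranges of Prpf31 and Ptbp2 (21.6 to 27.8 and 26.2 to 33.8 TPM) overlapped as well.

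Most members were tightly measured, and a few were not. The ratio of the highest to the lowest GFP library had a median of 1.05 over the 55 genes and that of the ORAI2 libraries a median of 1.06. The 4 widest GFP groups were those of Srsf11 (1.25), Srsf5 (1.21), Hnrnph1 (1.17) and Srsf2 (1.16). All 4 were lowest in GFP replicate 1 and highest in GFP replicate 3. In Hnrnph1, a binder of G-rich tracts, the GFP libraries were at 332, 359.6 and 388 CPM and the ORAI2 libraries at 361, 383 and 378 CPM, and it did not pass (log2 fold change 0.06, adjusted p = 0.394). Over all members, 13 of 55 had GFP replicate 1 lowest and GFP replicate 3 highest, 7 of them SR genes. The share of all tested genes with that order was not counted, so nothing is read from these counts.

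**Figure D4:**
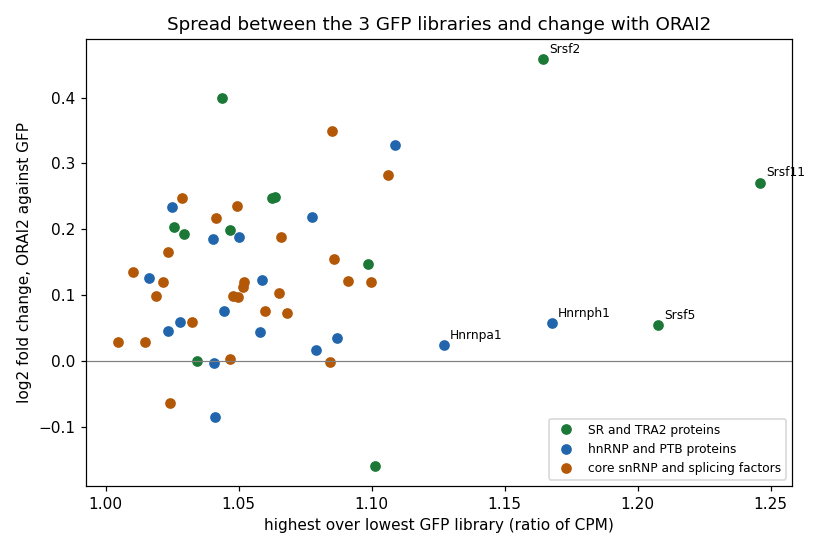
Ratio of the highest to the lowest of the 3 GFP libraries in CPM (x axis) against the log2 fold change of ORAI2 against GFP (y axis), 1 point per gene and coloured by class. Srsf11, Srsf5, Hnrnph1 and Srsf2 lie farthest to the right, at 1.25, 1.21, 1.17 and 1.16, and of these Srsf5 and Hnrnph1 did not pass.

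Further splicing genes stood in lists outside the 55. Of 123 such genes 122 were tested, of which 48 (39.3%) rose, 8 fell and 66 did not pass, with a median log2 fold change of 0.10. Against these and the following counts stand 20.8% of all tested genes called higher and 22.1% called lower (31.2% and 23.5% within the members' range of level). Of 14 further U1, U2 and Sm factors 7 rose and none fell, among them the helicase Ddx46 (1.19-fold, adjusted p = 0.000640). Of 20 further tri-snRNP, Prp19 and catalytic step factors 11 rose and none fell, led by Usp39 (1.14-fold, adjusted p = 0.000968) and the kinase Prpf4b (1.16-fold, adjusted p = 0.00175). LSm proteins, which bind the end of the U6 RNA, rose in 3 of 7 cases with none lower, with Lsm3 1.17-fold and Lsm6 1.16-fold higher (adjusted p = 0.00821 and 0.009). In the minor spliceosome, which removes a rare class of introns, 2 of 8 rose (Zcrb1 and Zrsr2, 1.11-fold and 1.09-fold, adjusted p = 0.0200 and 0.0359). Zmat5 fell there by 0.45 on the log2 scale from 5.64 CPM (adjusted p = 0.0128).

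Genes in the list of SR-like coactivators and related proteins rose in 8 of 13 cases with none lower. Pnn (pinin) stood at 94.5, 105.6 and 114 CPM with GFP and at 133, 142 and 145 CPM with ORAI2, a 1.34-fold rise without overlap (adjusted p = 0.000106). Luc7l, a U1-associated protein, rose 1.17-fold (adjusted p = 0.000560). Of 8 kinases and phosphatases of SR proteins 2 rose, Srpk1 (1.09-fold, adjusted p = 0.0122) and Clk2 (1.15-fold, adjusted p = 0.0296), and none fell, a share of rises near the background. Of 10 other hnRNP relatives 3 rose and none fell, with Hnrnpll 1.21-fold and Syncrip 1.15-fold higher (adjusted p = 2.54e-05 and 0.000443), again a share of rises near the background.

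Of 16 regulators known for tissue-specific exon choice 5 rose and 4 fell, shares near those of the genes within the members' range of level (31.2% and 23.5%). Qk (quaking) and Sfpq each rose 1.18-fold (adjusted p = 0.000152 and 0.000456). Celf2 fell by 0.38 and Mbnl1 (muscleblind) by 0.23 on the log2 scale (adjusted p = 0.000191 and 0.000640), and the other members that fell were Mbnl2 and Rbfox2. Among 11 genes of snRNP assembly, in which the SMN complex and the methylosome load Sm rings onto snRNAs, 4 rose and 2 fell. Wdr77, the methylosome partner of PRMT5, rose 1.28-fold from 197, 194 and 192 CPM to 256, 249 and 242 CPM (adjusted p = 5.23e-06). Gemin4 rose 1.16-fold (adjusted p = 0.00396), while Gemin8 and Gemin2 fell by 0.53 and 0.16 on the log2 scale (adjusted p = 0.000247 and 0.0278). Of 15 genes of the exon junction complex and nonsense-mediated decay 3 rose, with Upf1 1.14-fold and Smg5 1.09-fold higher (adjusted p = 0.00406 and 0.0131).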

How the data were processed

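Per the labels' protocols, poly(A) RNA was purified on oligo(dT) beads, fragmented and primed with random hexamers. The build was GRCm39 and the tools were Salmon 1.4.0 and HISAT2 2.0.4, per the submitters' processing notes, which give neither their roles nor an annotation or strand setting. The table that the authors deposited held counts and TPM for every gene in each library, per the file headers. These counts are whole numbers, and how they were made is not stated. Symbols came from a RefSeq table (GRCm38.p6), which matched 25631 of 26532 Entrez numbers (96.6%).

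Counts were tested with edgeR 4.0.16 (R 4.3.3; limma 3.58.1, DESeq2 1.42.0 as alternatives) by glmQLFit and glmQLFTest, with TMM, filterByExpr at a minimum count of 10 and 3 libraries a group. SE was derived from the F statistic. No pair of libraries within a group agreed within sampling noise (chi-square per gene 2.54 to 4.50). Libraries of near equal depth limit counting error alike. The edgeR step was also run on simulated data, in which the planted changes were of 1.2-fold or more. Since 23 of the 29 called members rose by less, it does not show how well rises of their size are recovered. Shared 50-base words were counted in GENCODE M21 transcripts (GRCm38). Full values were given, per class, for up to 6 called members a direction with the smallest p and the 2 not-called members of highest mean CPM, and from each further list up to 2 called genes a direction, some of which are not reported here. Other genes, the motif and the printed promoters were chosen after values were seen. The members and lists were chosen with earlier results of these data known. Alternatives were other normalisations, filters, tools, the replicate block, leaving out each library and, added after seeing the data, limma on log2(TPM + 1). The replicate numbers were not used to pair samples.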

Additional observations from a re-analysis of the deposited data

How the results depend on the processing

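The median log2 fold change of the members was above 0 under every alternative run, and 22 of the 29 called members (8 SR, 6 hnRNP and PTB, 8 core) stayed called under all 14 planned ones; the other 7 were Srsf4, Hnrnpf, Sf3a2, Sf3a3, Snrpa, Snrnp200 and Prpf6. With the upper quartile normalisation 2 members were called lower (1 SR gene, Srsf9, and 1 hnRNP gene, Hnrnpl), and the median of the core genes was 0.09 (0.0949) against 0.12. With the filter at 5 CPM 1 member was lower, the SR gene Srsf9. Leaving out 1 library in turn gave 22 to 29 members higher and 0 to 1 lower, with 8 to 10 SR genes higher and 0 to 1 lower, 6 to 7 hnRNP and PTB genes higher and 8 to 13 core genes higher. Class medians then ran from 0.19 to 0.24 (SR), from 0.0559 to 0.0852 (hnRNP and PTB) and from 0.11 to 0.13 (core). In the TPM columns numbered 1 and 2 (2 against 2, added after seeing the data) 1232 genes were higher and 1966 lower over all genes, against 2869 and 3040. There 17 members were higher, with a median of 0.10, among them 4 hnRNP and PTB genes and 6 core genes with a core median of 0.0865. The cause was not tested. Signs changed only for genes that did not pass. Tra2a was at 0.0016 with RLE and with DESeq2 and at 0.0023 with library totals only, and from -0.016 to 0.036 with a library left out. Hnrnpk was at -0.0039 with the upper quartile and from -0.019 to 0.039 with a library left out, below 0 without GFP replicate 3 or ORAI2 replicate 2. Srsf5 ran from -0.0075 (without GFP replicate 1) to 0.13, and in the TPM columns Srsf5 was at -0.019 and Hnrnph1 at -0.014.

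With the replicate number as a block 32 members were higher and 1 lower, the hnRNP gene Hnrnpl, against 29 and 0. Deviations from the group means correlated at 0.136, 0.073 and 0.126 between libraries of the same number; each library correlated best with its own number, a hint from the data and not the design.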
